A study of Mus musculus with 36 samples.

Results

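The genes described here are the splicing and RNA-binding protein families measured in mouse fibroblasts that carry an Erbb2 transgene. They were taken by a rule on gene symbols: every annotated gene whose symbol starts with Srsf, Hnrnp, Snrp or Snrnp, Sf3a or Sf3b, Lsm and a digit, or Ddx and a digit. The rule gave 80 of the 9930 genes named on the array, on 115 probes: 27 DEAD-box genes (Ddx), 14 heterogeneous nuclear ribonucleoprotein genes (hnRNP), 14 genes of small nuclear ribonucleoproteins (snRNP), 10 LSm genes, 9 SR genes (Srsf) and 6 genes of splicing factor 3 (SF3).

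NIH3T3 is an established line of mouse embryonic fibroblasts. In the tet-off system used here, tetracycline is meant to shut down a transgene, here Erbb2, which encodes a growth factor receptor with tyrosine kinase activity. Per the labels, channel 1 of each two-colour array held RNA of Erbb2 transfected NIH3T3 cells after 1, 2, 4, 12 or 24 h or 3, 5 or 7 d of tetracycline, or of untreated cells, and channel 2 held RNA of untreated Erbb2 cells. No group without the transgene entered these comparisons. The labels do not name the promoter or the clone of the line, nor do they say whether replicates were separate cultures, so p-values measure the spread between arrays, which may be technical. The labels' protocols speak of organs and of pooled RNA of control animals as the reference, and the design text of a pair of untreated lines, so the make-up of the reference and of the untreated arrays is not fully settled. Each time had 4 arrays, and there were 3 distinct untreated arrays. Values are log2 ratios with the median of each array set to 0; values above 0 are read as more RNA in the tetracycline-treated cells, a direction that was assumed and that no file settles. If the ratios were deposited the other way round, each rise below is a fall and each fall a rise. No probe named Erbb2 was on the array by the annotation used, so the shutdown itself was not checked here. Log ratios hold no level, so the absence of markers of other cell types could not be examined either.

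Pre-mRNA splicing removes introns in the spliceosome, which is built on 5 small nuclear RNAs and their proteins. A ring of Sm proteins (Snrpb, Snrpd1, Snrpd3 and others) forms the core of most of these particles, LSm proteins form a related ring, and SF3 subunits belong to the U2 particle that recognises the branch point. SR proteins bind exons and mostly promote their inclusion, hnRNP proteins coat nascent RNA and often oppose them, and both groups also act in export, stability and translation of mRNA. DEAD-box proteins are RNA helicases that remodel RNA and RNA-protein complexes from splicing to ribosome assembly and translation. Many SR and hnRNP genes are known to tune their own mRNA through splicing of exons that lead to decay.

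The arrays held 17508 to 20010 values each. On the arrays of 3, 5 and 7 d the spread of log2 ratios over all probes was wider (interquartile range 0.697 to 1.42) than on those of 1 to 24 h (0.357 to 0.504) and on the untreated arrays (0.492 to 0.70). Arrays of the same group but opposite dye agreed weakly: over all genes, the mean correlation within a treated group lay between -0.15 (3 d) and 0.05 (2 h), and for the untreated arrays it was -0.40. Over the 80 members alone the same correlations were 0.19 at 1 h, 0.25 at 2 h, 0.30 at 4 h, 0.09 at 12 h, 0.24 at 24 h, -0.26 at 3 d, -0.08 at 5 d, 0.06 at 7 d and -0.24 in the untreated arrays. These correlations run across genes, which are not independent replicates. The part of dye and of the wider late spread in the results below was not tested beyond the values given.

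Against the untreated arrays, few members were called. The fit was limma's linear model over all 35 arrays with a dye term. A gene was called at a p under 0.05 after Benjamini-Hochberg adjustment across all genes tested. At 2 h 2 of 76 members tested rose (all genes: 0.549% called, 0.42% higher). At 4 h 1 of 76 rose (0.268% called, 0.161% higher). At 5 d 1 rose and 2 fell among 74 (1.61% called, 0.795% higher and 0.817% lower). At 7 d 1 of 74 rose (1.12% called, 0.674% higher). No member was called by limma at 1 h (77 tested, all genes 0.25%), 12 h (76 tested, 0.0218%), 24 h (77 tested, 0.0219%) or 3 d (71 tested, 0.5%). At an unadjusted p under 0.05, 6, 8, 6 and 10 members passed at these times, or 7.79%, 10.5%, 7.79% and 14.1%, against 5.13%, 4.35%, 4.48% and 12.2% of all genes. The 8 comparisons share the same 3 untreated arrays. On simulated data this fit found 29.5% of changes of 1 on the log2 scale at 2 h and 37.2% at 5 d. 

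Per the labels, the arrays also carry an untreated channel of their own, and a mean of 0 was taken as no difference. The untreated arrays themselves were not at 0 for each family. Their hnRNP medians were 0.00, 0.28 and 0.26 and their SR medians 0.03, -0.29 and -0.07. A call against 0 is therefore not the same as a difference from the untreated arrays. Set against 0, 10 of 79 members tested were called at 2 h, all higher (12.7%, against 2.61% of all genes, 2.32% higher): Ddx1, Ddx3x, Hnrnpa1, Hnrnpa2b1, Hnrnpd, Hnrnpdl, Hnrnpf, Snrpd3, Srsf2 and Srsf3. At 1 h 2 of 79 were called (2.53%, all genes 0.774%), at 4 h 5 of 79 (6.33%, all genes 0.962%), at 12 h 2 of 79 (2.53%, all genes 0.368%) and at 24 h 2 of 78 (2.56%, all genes 0.347%), all of them higher. At 3 d 1 of 73 was higher and 2 lower (4.11%, all genes 5.19%), at 5 d 2 of 75 higher and 5 lower (9.33%, all genes 4.94%), and at 7 d 6 of 76 higher (7.89%, all genes 5.46%). The share of members was above that of all genes at each time but 3 d.

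A count that needs no test gave a like picture: members whose 4 arrays of a time all lay above, or all below, the 3 untreated arrays. At 2 h 14 of 76 lay above and 0 below (18.4%; all genes 7.37% above and 3.35% below). At 1 h 8 of 77 lay above and 2 below (all genes 3.96% and 3.79%), at 4 h 10 and 1 of 76 (4.41% and 2.47%), at 12 h 6 and 2 of 76 (3.16% and 2.74%) and at 24 h 5 and 2 of 77 (3.38% and 2.72%). At 3 d 1 of 71 lay above and 1 below (2.39% and 2.37%), at 5 d 3 and 6 of 74 (4.29% and 4.12%) and at 7 d 8 and 2 of 74 (3.88% and 3.3%). Hnrnpa2b1, Hnrnpm, Srsf2 and Srsf3 lay above the untreated arrays at each of the 5 times from 1 to 24 h, which is 4 of the 75 members tested at all 5 (5.33%, against 0.573% of all genes). For Hnrnpm this held only for the mean of its probes, each of which overlapped its own untreated values. Its lowest mean at 24 h and its highest untreated mean both rounded to -0.03.

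A pair of tests used the whole course or its parts. Over the 8 times together, limma's F-test called 12 of 68 members, or 17.6%, against 5.1% of all genes. The mean of the late arrays (3, 5 and 7 d) minus that of the early arrays (1, 2 and 4 h), a contrast that needs no untreated array, called 15 of 69 members, or 21.7%, against 6.7% of all genes. Of these 15, 12 were lower late (all genes: 4.25% lower) and 3 were higher (2.44%). With values not centred on the array median, 9 were lower and 0 higher (13% of members called, against 3.89% of all genes). By family, 6 of 13 hnRNP genes were lower, 2 of 9 SR genes lower and 1 higher, 3 of 22 DEAD-box genes lower and 2 higher, and 1 of 11 snRNP genes lower. None of 9 LSm and none of 5 SF3 genes was called. The remaining 11 members had too few values for this contrast: Ddx18, Ddx20, Ddx41, Ddx42, Ddx52, Hnrnpa3, Lsm2, Sf3b3, Snrnp25, Snrpc and Snrpd1.

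**Figure D1:**
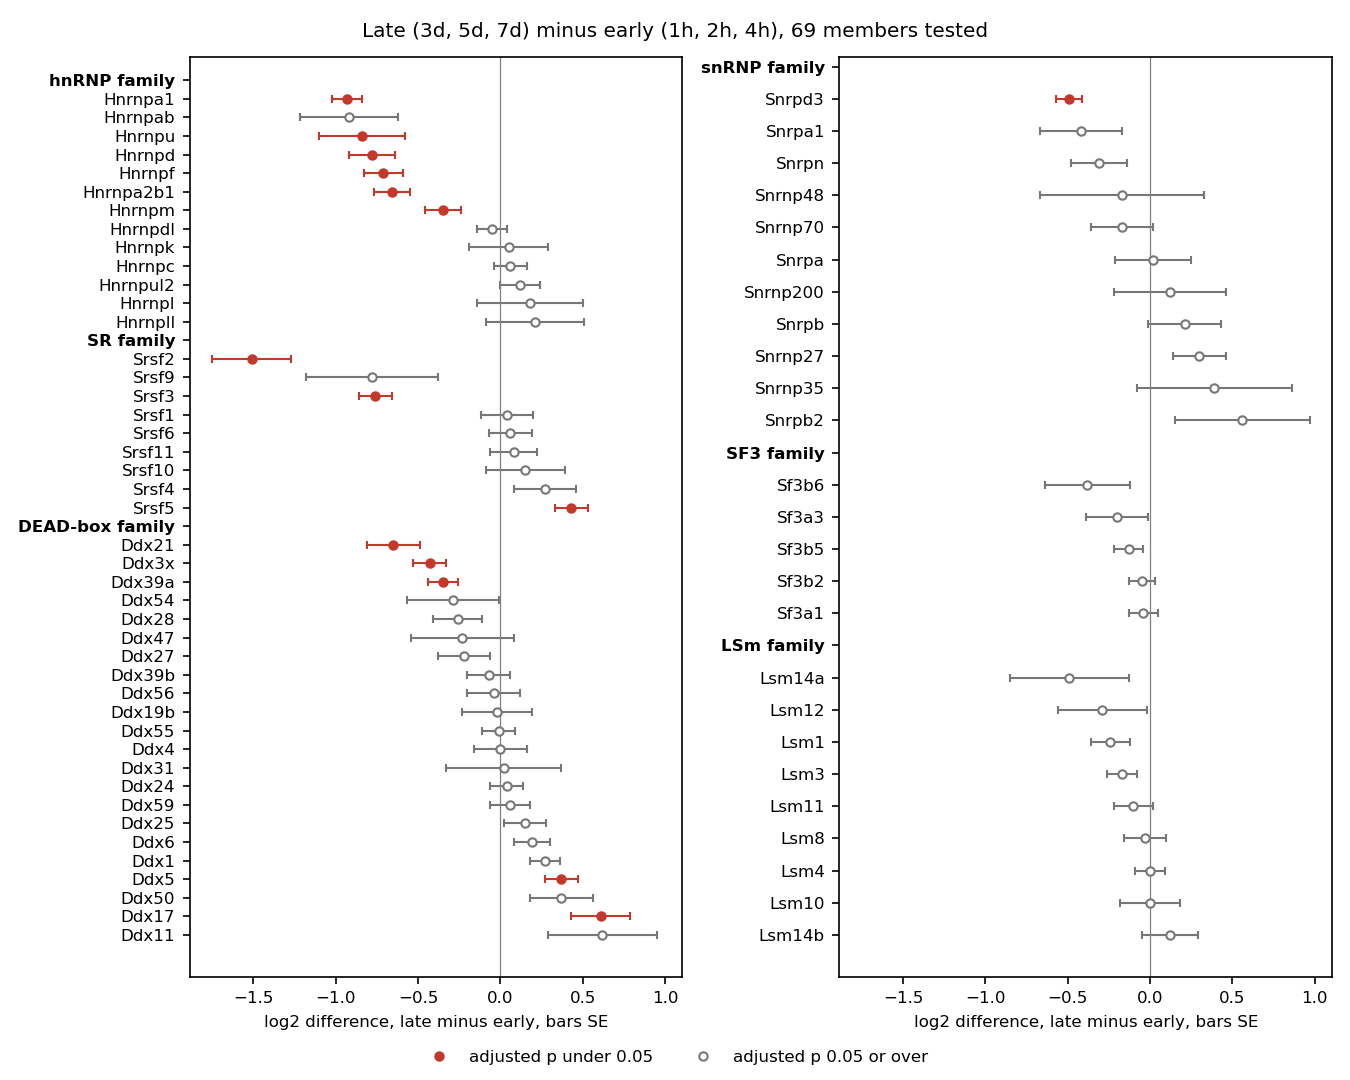
Log2 difference of late (3, 5 and 7 d) minus early (1, 2 and 4 h) arrays for the 69 members tested, grouped by family. Points are limma estimates and bars their SE; filled red points have an adjusted p under 0.05. The 15 called members include 6 of 13 hnRNP genes, all lower, while no LSm or SF3 gene was called.

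Among the SR genes, Srsf3 had the clearest early rise. Srsf3 encodes the smallest SR protein, which acts in exon inclusion and mRNA export. Its log2 ratios at 2 h were 1.01, 1.28, 1.04 and 1.16, and in the untreated arrays -0.15, -0.03 and 0.12, so the groups did not overlap. The difference at 2 h was 1.15 (SE 0.19, adjusted p = 0.000991), with means of 1.12 ± 0.12 (SD, n = 4) and -0.02 ± 0.14 (SD, n = 3). At 4 h the 4 values ran from 0.82 to 1.03, and the difference was 0.93 (SE 0.19, adjusted p = 0.017). Srsf3 means at 1, 12 and 24 h were 0.60, 0.59 and 0.53, each above every untreated array, but these differences did not pass (adjusted p = 0.262, 0.476 and 0.665).

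On the late arrays Srsf3 was lower than on the early ones, though not back to untreated at each time. At 7 d it read 0.42, 0.46, 0.14 and 0.45, all above the 3 untreated arrays, while the arrays of 3 and 5 d (-0.77 to 0.29) overlapped them. The 12 early arrays ran from 0.46 to 1.28 (median 0.87) and the 12 late arrays from -0.77 to 0.46 (median 0.20), so that each late array lay at or below the lowest early one. Late minus early was -0.76 (SE 0.10, adjusted p = 2.7e-06), -0.88 within the Cy5 arrays and -0.64 within the Cy3 arrays. Among the 69 members tested Srsf3 was the only one with no overlap between early and late arrays (1.45%, against 0.361% of all genes for this direction). Both Srsf3 probes were lower late, by -0.56 (SE 0.14) and -0.96 (SE 0.11). The call at 4 h was lost without 4h replicate 2, 4h replicate 3 or untreated replicate 3, with adjusted p up to 0.0867, while the call at 2 h held without any single array.

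Srsf2, which encodes SC35, a component of nuclear speckles, followed a like course. Its values were 1.25, 1.61, 1.23 and 1.38 at 2 h against 0.03, -0.26 and -0.07 in the untreated arrays. These groups did not overlap, yet the difference of 1.42 (SE 0.43) did not pass against the untreated arrays (adjusted p = 0.232). Srsf2 differed between late and early arrays by -1.51 (SE 0.24, adjusted p = 5.5e-05). At 5 d Srsf2 read 0.33 on Cy5 replicate 1, had no value on replicate 2 and read -3 and -3.03 on the Cy3 arrays, so its fall at 5 d (difference -1.80, SE 0.46, adjusted p = 0.0404) rested on 2 arrays of 1 dye orientation. That call was lost without untreated replicate 3 or 4. Without the 5 d arrays late minus early was -0.86 and still called. Within the Cy5 arrays it was -0.85, not tested because 5 d had only 1 Cy5 value.

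Srsf5, the gene of SRp40, moved the other way from Srsf2 and Srsf3 between early and late arrays. Its values were 0.71, 1.09, 0.49 and 0.76 at 5 d and 0.81, 0.80, 0.09 and 0.55 at 7 d, while the 12 early arrays ran from -0.34 to 0.63 (median 0.00). At 3 d it read 0.29, 0.16, -0.33 and 0.22, all within the early range. Late minus early was 0.43 (SE 0.10, adjusted p = 0.00358), 0.28 without the 5 d arrays and 0.31 without the 4 h arrays, not called in either case. Its probes gave 0.46 and 0.39 (adjusted p = 0.0692 and 0.0567), neither called in the fit per probe. Against the untreated arrays it rose at 2 h by 1.01 (SE 0.18, adjusted p = 0.0031), at 5 d by 1.41 (SE 0.18, adjusted p = 2.64e-05) and at 7 d by 1.21 (SE 0.18, adjusted p = 0.000254). The untreated values of -0.09, -1.26 and -0.76 differed between its probes: 1 probe read -2.36 and -1.54 on untreated replicates 3 and 4 and had no value on replicate 1, while the other read -0.09, -0.16 and 0.03. On that second probe the differences were 0.21 at 2 h, 0.53 at 5 d and 0.61 at 7 d, none called (adjusted p = 0.999, 0.368 and 0.269). Set against 0, Srsf5 averaged 0.77 at 5 d (SE 0.12, adjusted p = 6.06e-05) and 0.56 at 7 d (SE 0.12, adjusted p = 0.00306), but was not called at 2 h. Without untreated replicate 3 the call at 2 h was lost (adjusted p = 0.0589).

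The other 6 SR genes did not pass between early and late arrays: Srsf9 had a difference of -0.78 (SE 0.40), and Srsf1, Srsf4, Srsf6, Srsf10 and Srsf11 lay between 0.04 and 0.27. Srsf1, the founding SR protein, read -0.26 to 0.47 on the early arrays and -1.09 to 1.09 on the late ones. The SR genes called between early and late arrays were thus 3 of 9, in unlike directions.

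**Figure D2:**
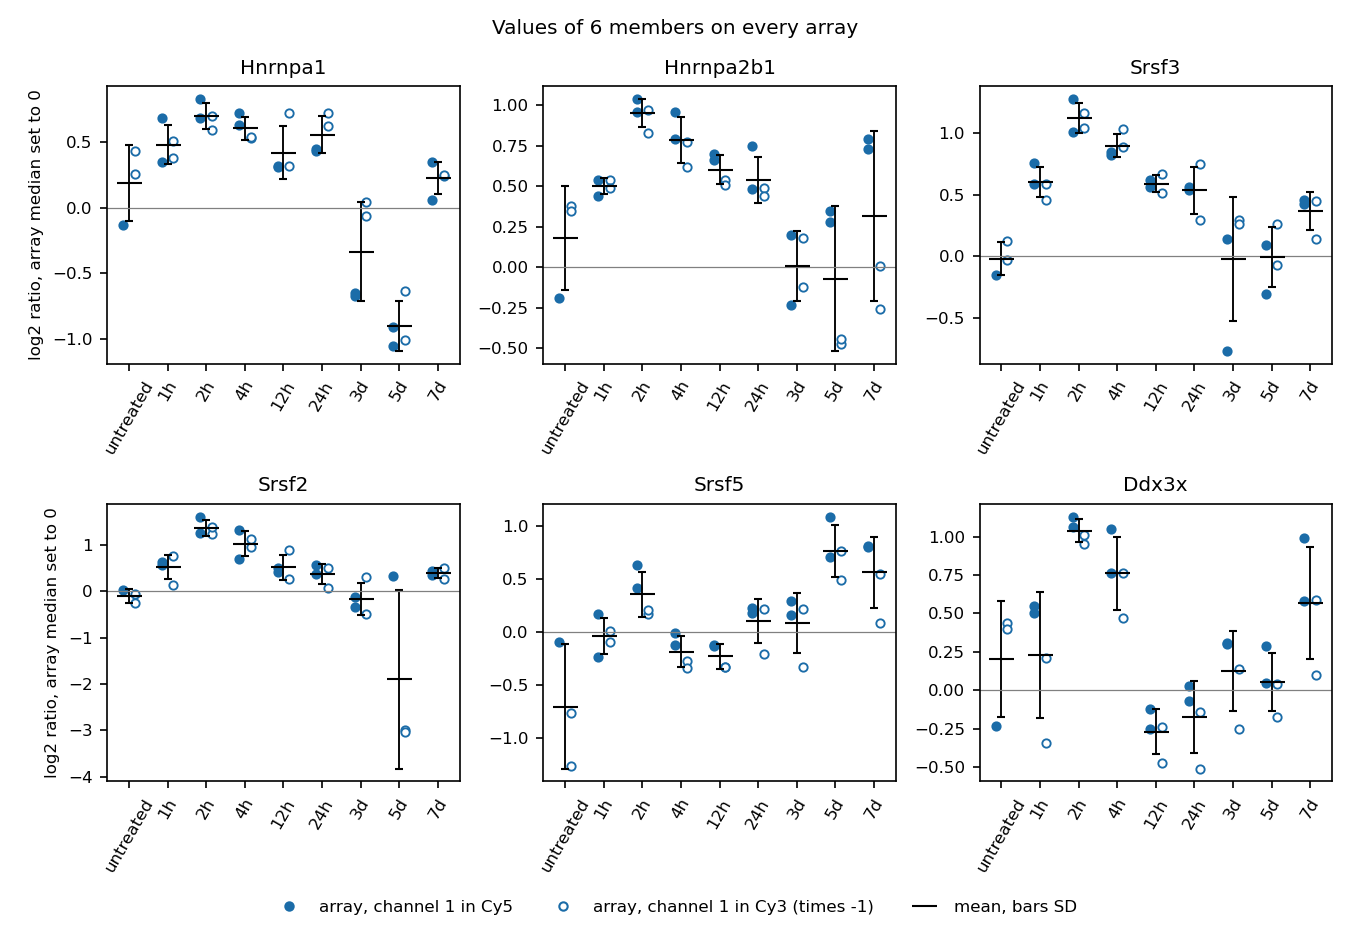
Log2 ratios of Hnrnpa1, Hnrnpa2b1, Srsf3, Srsf2, Srsf5 and Ddx3x on every array by group, with filled points for arrays with channel 1 in Cy5, open points for Cy3 and black marks for the mean and SD. Srsf3 and Srsf2 are highest at 2 h, Hnrnpa1 falls to between -1.05 and -0.63 at 5 d, and the 5 d values of Srsf2 split between 0.33 and -3.03.

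Upstream DNA was read from RefSeq (assembly GRCm38.p6), as the 250 bases before the start of 1 entry per gene; 69 of the 80 members had one. For 33 of the 69 this window reached into the annotated gene, whose span begins further upstream, and for 13 it lay wholly inside. Sequences are therefore shown only for called members whose window lay wholly before the gene. Srsf3, Snrpd3 and Hnrnpf had lower late values, called with each of the 6 times left out in turn. Ddx5 was higher late, and its call was lost without the 1 h, 4 h or 7 d arrays. Ddx21 and Hnrnpm, also called, had such windows too but are not shown. The sequences stand 5′ to 3′ on the gene's strand: chr17:29032410-29032659 on the plus strand for Srsf3, chr10:75517792-75518041 on the plus strand for Snrpd3, chr6:117900090-117900339 on the plus strand for Hnrnpf and chr11:106789186-106789435 on the minus strand for Ddx5. Capitals mark matches, on either strand, to any of the motifs searched, with overlapping matches each counted. The CCAAT box was searched by the letters CCAAT, and the GC box, which transcription factors of the Sp family bind, by GGGCGG. The E-box, bound by Myc and related factors, was searched as CACGTG, and the E2F site of cell cycle genes as TTTCCCGC. The CRE, or cyclic AMP response element, was searched as TGACGTCA, the EGR site of early growth response factors as GCGTGGGCG, and the TATA box, which lies upstream of many start sites, as TATAAA.
Srsf3: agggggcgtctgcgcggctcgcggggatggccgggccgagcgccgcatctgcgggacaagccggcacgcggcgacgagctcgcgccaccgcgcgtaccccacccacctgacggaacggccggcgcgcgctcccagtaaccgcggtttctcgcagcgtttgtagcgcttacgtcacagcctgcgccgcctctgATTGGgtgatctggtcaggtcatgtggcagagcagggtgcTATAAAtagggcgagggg
Snrpd3: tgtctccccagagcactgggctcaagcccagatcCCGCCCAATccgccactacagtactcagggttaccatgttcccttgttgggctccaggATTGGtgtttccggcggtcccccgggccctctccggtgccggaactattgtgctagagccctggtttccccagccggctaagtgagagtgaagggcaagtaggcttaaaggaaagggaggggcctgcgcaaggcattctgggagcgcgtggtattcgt
Hnrnpf: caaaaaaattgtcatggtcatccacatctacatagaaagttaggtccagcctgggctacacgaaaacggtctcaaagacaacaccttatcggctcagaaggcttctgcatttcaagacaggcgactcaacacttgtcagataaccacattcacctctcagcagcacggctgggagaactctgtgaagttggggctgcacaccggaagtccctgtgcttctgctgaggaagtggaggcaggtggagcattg
Ddx5: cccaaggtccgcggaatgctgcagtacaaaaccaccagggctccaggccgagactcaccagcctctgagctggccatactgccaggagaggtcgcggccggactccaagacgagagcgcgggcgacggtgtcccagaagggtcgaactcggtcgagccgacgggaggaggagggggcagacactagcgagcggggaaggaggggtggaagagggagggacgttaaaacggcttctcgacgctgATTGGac

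Srsf3 held 1 CCAAT box and 1 TATA box, Snrpd3 2 CCAAT boxes and 1 GC box, and Ddx5 1 CCAAT box. In the Hnrnpf window none of the motifs searched was found. Of the windows not shown, that of Hnrnpm held 1 TATA box and that of Ddx21 none of the motifs. Of the 69 members with an entry, 63.8% held a GC box, against 32.9% of the 27025 promoters of the same length, and 44.9% held a CCAAT box, against 34.5%. Among the 14 members called late against early that had an entry, 8 held a GC box (57.1%) and 6 a CCAAT box (42.9%), against 31 (68.9%) and 18 (40.0%) of the 45 tested and not called. A TATA box stood in 3 of the 14 (21.4%) and 2 of the 45 (4.44%), against 13.0% of all promoters. An E-box was held by 4 members (5.8%, all promoters 6.05%), the E2F site by 3 (4.35%, all 0.929%), the CRE by 1 (1.45%, all 1.62%) and the EGR site by none of the 69 (all 0.54%). The member shares also count the 33 windows that reached into the gene. Among called members, those of Ddx3x, Hnrnpa1, Hnrnpu and Srsf2 lay wholly inside it. The matches describe the letters only.

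Among the families, the hnRNP genes had the largest median at 2 h; no test compared families, and at 12 h, 24 h, 3 d and 7 d the SR median was the larger of these 2 families (0.32, 0.28, 0.47 and 0.40, against 0.25, 0.11, -0.08 and 0.09). At 2 h 14 of 14 differences from the untreated arrays were above 0, with a median of 0.55, against 0.04 over all genes tested, although none of the 14 was called (0.549% of all genes called). The median of the 14 genes on the arrays themselves was 0.52, 0.44, 0.32 and 0.39 at 2 h, and -0.21, -0.24, -0.15 and -0.18 at 5 d. All 4 arrays of 2 h lay above all 4 of 5 d, in both dye orientations. On the untreated arrays this median was 0.00, 0.28 and 0.26, so 2 of those 3 reached into the range of 4 h (0.16 to 0.47). The family median at 2 h kept its sign with values not centred (0.33), quantile normalization (0.58) and without turning the Cy3 arrays (0.11).

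**Figure D3:**
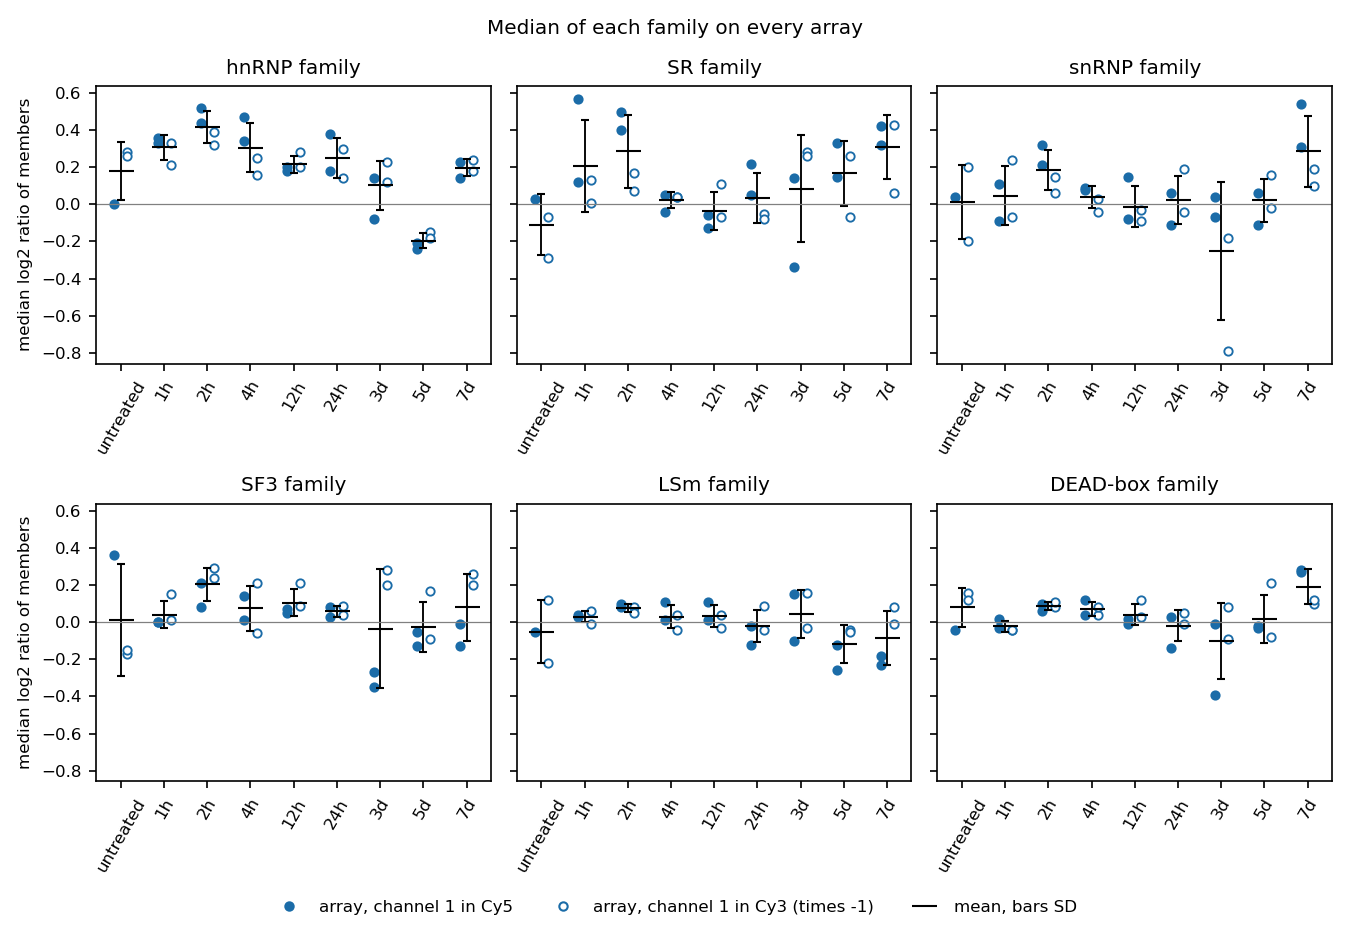
Median log2 ratio of the members of each family on every array, by group, with filled points for Cy5, open points for Cy3 and black marks for the mean and SD. The hnRNP medians lie between 0.32 and 0.52 at 2 h and between -0.24 and -0.15 at 5 d; the LSm medians stay between -0.26 and 0.16 on all arrays.

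Hnrnpa1, an abundant splicing repressor, showed the strongest late decrease by moderated test among members. All 20 arrays of 1 to 24 h lay above 0, from 0.31 to 0.83 with a median of 0.57. At 3 d it read -0.65, -0.67, -0.06 and 0.04, at 5 d -1.05, -0.91, -0.63 and -1.01, and at 7 d 0.35, 0.06, 0.24 and 0.25. The 5 d values lay below all arrays of the other times except the Cy5 arrays of 3 d, and the 7 d values lay within the untreated range (-0.13, 0.26 and 0.43). The difference at 5 d from untreated was -1.06 (SE 0.16, adjusted p = 0.000362), and it held without any single array (-1.18 to -0.97). Late minus early was -0.93 (SE 0.09, adjusted p = 6.55e-09), and -0.65 without the 5 d arrays, still called.

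Hnrnpa2b1, a close relative that binds and transports RNA, also lay above 0 on all 20 arrays of 1 to 24 h, from 0.44 to 1.04. Its late minus early difference was -0.66 (SE 0.11, adjusted p = 9.29e-05). Its late arrays disagreed by dye: at 5 d the Cy5 arrays read 0.28 and 0.35 and the Cy3 arrays -0.47 and -0.44, and at 7 d 0.73 and 0.79 against -0.26 and 0.01. Within the Cy5 arrays late minus early was -0.44 and within the Cy3 arrays -0.88. Besides these 2 genes, Srsf2 and Srsf3 were the only other members above 0 on all 20 arrays of 1 to 24 h. That is 4 of the 69 members with all 20 values, or 5.8%, against 1.03% of all genes.

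Hnrnpd, or AUF1, which binds AU-rich elements of unstable mRNAs, read 0.92, 0.99, 0.76 and 0.83 at 2 h and -0.21, -0.36, -0.02 and -0.28 at 5 d. Its late minus early difference was -0.78 (SE 0.14, adjusted p = 0.000196), -1.16 within Cy5 and -0.39 within Cy3. Hnrnpf, which binds G-rich tracts, read 0.87, 1.04, 0.78 and 0.91 at 2 h and -0.36, -0.38, -0.18 and -0.37 at 5 d. The late minus early difference of Hnrnpf was -0.71 (SE 0.12, adjusted p = 0.000203), and its 2 probes gave -0.65 (SE 0.13) and -0.76 (SE 0.19). Both genes were high at 2 h and low at 5 d on all 4 arrays of each, and neither passed against the untreated arrays at any time. At 3 d both split by dye. Hnrnpd read -0.67 and -0.62 on the Cy5 arrays and 0.90 and 0.20 on the Cy3 arrays. Hnrnpf read -0.36 and -0.20 on the Cy5 arrays and 0.58 and 0.46 on the Cy3 arrays.

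As means over their probes, Hnrnpu and Hnrnpm passed narrowly. Hnrnpu, a nuclear scaffold protein, differed by -0.84 (SE 0.26, adjusted p = 0.048) and Hnrnpm by -0.35 (SE 0.11, adjusted p = 0.049). Leaving out single early or late arrays kept the call in 6 of 24 cases for each, and the other 18 gave adjusted p up to 0.0966 for Hnrnpu and 0.101 for Hnrnpm. Of the 6 times left out in turn, only leaving out 7 d kept either call. The probes of Hnrnpm gave -0.54 (SE 0.16) and -0.16 (SE 0.13). Of the 3 probes of Hnrnpu, 1 gave -0.55 (SE 0.11, adjusted p = 0.00106 in the fit per probe), another -0.74 (SE 0.45, adjusted p = 0.442), and the other one had too few values. The late values of Hnrnpu ran from -1.82 to 1.00 and overlapped the early range of -0.11 to 1.04. Hnrnpab had a difference as large (-0.92, SE 0.30) but did not pass (adjusted p = 0.0611). Its probes gave -0.84 (SE 0.12, adjusted p = 1.42e-05 in the fit per probe) and -0.89 (SE 0.58, adjusted p = 0.485), so 1 probe passed and the mean with the more variable one did not. The remaining hnRNP genes tested did not pass: Hnrnpc, which binds uridine tracts, had 0.06 (SE 0.10), Hnrnpk, which binds cytosine-rich RNA, 0.05 (SE 0.24), Hnrnpl 0.18 (SE 0.32), Hnrnpdl -0.05 (SE 0.09), Hnrnpul2 0.12 (SE 0.12) and Hnrnpll 0.21 (SE 0.30).

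Of the snRNP genes, only Snrpd3 was called. Snrpd3 encodes SmD3, a subunit of the Sm ring. It read 0.79, 0.65, 0.54 and 0.66 at 2 h, -0.26, -0.41, -0.15 and -0.28 at 5 d and 0.07, -0.10 and 0.28 in the untreated arrays. All 2 h values lay above, and all 5 d values below, the 3 untreated ones, but neither difference passed (0.57, adjusted p = 0.131, and -0.36, adjusted p = 0.375). Late minus early was -0.49 (SE 0.08, adjusted p = 0.000153), -0.58 within Cy5 and -0.40 within Cy3, and the call held without any single array. The other 10 snRNP genes tested ran from -0.42 (Snrpa1, SE 0.25) to 0.56 (Snrpb2, SE 0.41) and did not pass. Snrnp70, a U1 protein, had 1 probe that lacked a value on 6 of the 20 arrays of 1 to 24 h and on all of 3 d, and read up to 2.62 where it had one, while its other probe stayed between -0.36 and 0.34 on the arrays of 1 to 24 h; the gene was not called.

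The 9 LSm genes tested ran from -0.49 (Lsm14a, SE 0.36) to 0.12 (Lsm14b, SE 0.17) between late and early arrays. Lsm4 and Lsm8, subunits of LSm rings, had differences of 0.00 (SE 0.09) and -0.03 (SE 0.13), and Lsm1, which acts in mRNA decay, -0.24 (SE 0.12). Among the SF3 genes, Sf3a1, Sf3a3, Sf3b2, Sf3b5 and Sf3b6 had differences of -0.04, -0.20, -0.05, -0.13 and -0.38, all below 0 and none called. Sf3b5 was below 0 against the untreated channel at 3 d (-0.51, SE 0.11, adjusted p = 0.00883) and 5 d (-0.46, SE 0.11, adjusted p = 0.0139), but did not pass against the untreated arrays (adjusted p = 0.111 at 3 d). A p that misses the threshold does not show that these genes stayed the same: for Lsm14a and Sf3b6 the SE was 0.36 and 0.26.

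Among the DEAD-box genes, 5 passed between early and late arrays, in both directions. Ddx21, a nucleolar helicase of ribosome assembly, differed by -0.65 (SE 0.16, adjusted p = 0.00748), with early values from 0.15 to 0.66 and late values from -1.29 to 0.84. At 5 d Ddx21 read -1.13, -1.29, -0.52 and -0.07, below the untreated 0.13, 0.22 and 0.43. The lowest of these came from 1 of its 3 probes, which read -2.82, -3.57, -0.85 and 0.30 at 5 d. The others read -0.51 to -0.07 and -0.63 to 0.21 there, and each overlapped its own untreated values. At 7 d Ddx21 read 0.76, 0.84, -0.32 and 0.25, and the call was lost without the 5 d (-0.38) or the 2 h arrays (-0.58). Ddx39a, a helicase of mRNA export, differed by -0.35 (SE 0.09, adjusted p = 0.0178), but 1 of its probes gave 0.07 (SE 0.15) and the other -0.76 (SE 0.20). Its call was lost without the 2 h, the 4 h or the 5 d arrays (-0.29, -0.31 and -0.21).

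Ddx3x, a helicase that helps mRNAs with structured leaders to be translated, read higher at 2 and 4 h than at 12 and 24 h. It read 1.13, 1.06, 0.95 and 1.01 at 2 h and 1.05, 0.76, 0.76 and 0.47 at 4 h, then -0.25, -0.12, -0.24 and -0.47 at 12 h and 0.03, -0.07, -0.14 and -0.51 at 24 h. All 8 arrays of 2 and 4 h lay above all 8 of 12 and 24 h. Srsf3 did the same, with 0.82 to 1.28 at 2 and 4 h and 0.29 to 0.75 at 12 and 24 h. The share of all genes that did so was not counted. Against 0 Ddx3x averaged 1.04 at 2 h (SE 0.13, adjusted p = 4.25e-06). Against the untreated arrays its difference of 0.79 (SE 0.20) did not pass (adjusted p = 0.0612). Late minus early was -0.43 (SE 0.10, adjusted p = 0.00826), and -0.25 without the 2 h arrays, not called; the call was also lost without the 4 h (-0.39) or the 5 d arrays (-0.33).

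The paralogues Ddx5 and Ddx17 (p68 and p72), which act in splicing and as cofactors of transcription, were higher late. Ddx5 differed by 0.37 (SE 0.10, adjusted p = 0.0216; 0.70, 0.23 and 0.17 on its 3 probes), with late values up to 0.98 on the 7 d Cy5 arrays. The call was lost without 1h replicate 4 (adjusted p = 0.0505), and without the 1 h, 4 h or 7 d arrays (0.28, 0.32 and 0.24). Ddx17 differed by 0.61 (SE 0.18, adjusted p = 0.0323), but 3d replicate 1 read 2.68 because 1 of its probes stood at 5.31 there and the other at 0.04. Neither Ddx17 probe passed in the fit per probe (1.00, adjusted p = 0.0861, and 0.22, adjusted p = 0.35). Without the 3 d arrays the difference was 0.33, still called, and the call was lost in 7 of 24 cases of a single array left out (adjusted p up to 0.0571) and without the 1 h, 2 h or 4 h arrays (0.55, 0.72 and 0.58). Ddx1, a helicase of the tRNA ligase complex, was called by the F-test (adjusted p = 0.0234) and narrowly missed late against early (0.27, SE 0.09, adjusted p = 0.057), with probes at 0.40 (adjusted p = 0.00844 in the fit per probe) and 0.14 (adjusted p = 0.679). Its 5 d values of 0.28, 0.55, 0.79 and 0.78 and its 7 d values of 0.50 to 0.74 lay above 0 on all 8 arrays. The other 16 DEAD-box genes tested, among them Ddx6 of mRNA decay (0.19, SE 0.11) and the export helicase Ddx39b (-0.07, SE 0.13), did not pass.

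The sign of all 15 late minus early differences was the same within the Cy5 and within the Cy3 arrays. Among all genes called the same held for 555 of 556, so this is no property of the members. Calls made within the Cy5 arrays numbered 9 (14.3% of those tested, against 6.69% of all genes), 7 of them among the 15. Srsf2 was not tested there, as it had only 1 Cy5 value at 5 d. Within the Cy3 arrays there were 7 (10.8%, against 5.97%), 5 of them among the 15. Without turning the Cy3 arrays, limma called 2 members late against early (2.9%, against 2.38%), neither among the 15.

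**Figure D4:**
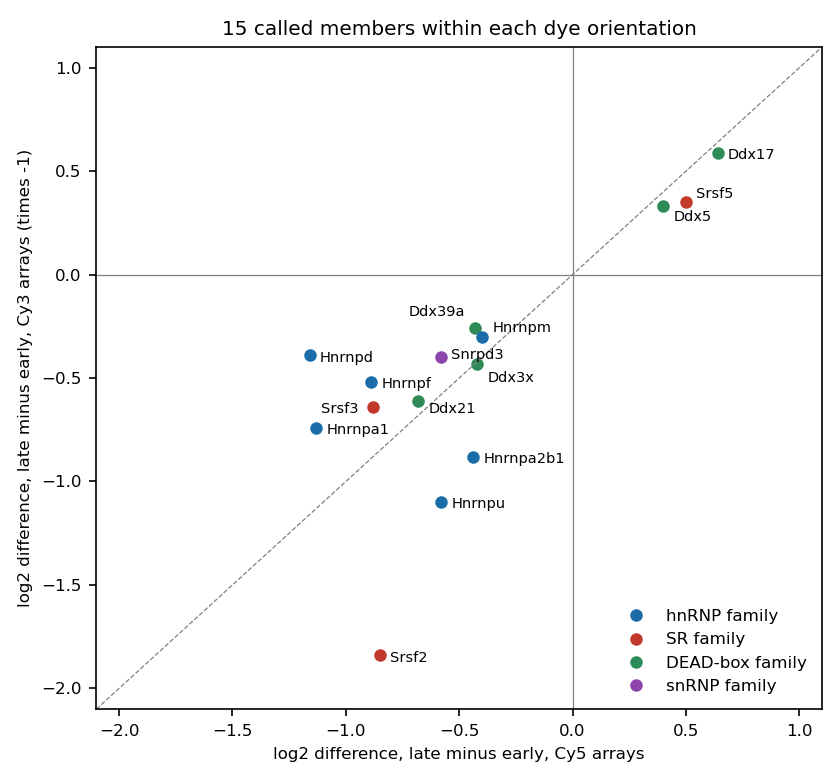
Late minus early log2 difference of the 15 called members within the Cy5 arrays (horizontal axis) and within the Cy3 arrays after multiplication by -1 (vertical axis), coloured by family, with a dashed line of equality. All 15 points lie in the lower left or upper right of the plot. Srsf2 is farthest from the line (-0.85 and -1.84), and its Cy5 difference rests on 1 array at 5 d.

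A list of 86 other genes of splicing and RNA processing, 71 of them on the array, gave 6 lower and 0 higher of 61 tested between late and early arrays (all genes: 2.44% higher and 4.25% lower). The 6 were the nucleolar proteins Npm1 (-1.30, SE 0.14) and Fbl (-0.82, SE 0.15), the poly(A)-binding protein Pabpc1 (-0.97, SE 0.12), the splicing repressor Ptbp1 (-0.57, SE 0.16), Ewsr1 (-0.52, SE 0.12) and Nono (-0.29, SE 0.08). The median over the 61 was -0.02, and that over the 69 members -0.04, against 0.00 for all genes. Against the untreated arrays, the nuclear matrix protein Matr3 rose at 2 h (1.47, SE 0.31, adjusted p = 0.0205), 4 h (1.43) and 5 d (1.25), and the speckle protein Son at 2 h (1.06), 3 d (1.28) and 7 d (1.27). Npm1 fell at 5 d (-1.48, SE 0.26) and 7 d (-1.17, SE 0.26), and Nono at 5 d (-0.59, SE 0.15). These are 2 of 66 list genes tested at 2 h, 1 of 67 at 4 h, 1 of 60 at 3 d, 3 of 64 at 5 d and 2 of 65 at 7 d. Of all genes 0.549%, 0.268%, 0.5%, 1.61% and 1.12% were called at these times.

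Other transcripts moved along the same contrast. Of 10 fibroblast markers tested, 8 differed between late and early arrays, 5 higher and 3 lower (all genes 6.7% called). Dcn was higher by 2.49 (SE 0.11) and S100a4 lower by 1.48 (difference -1.48, SE 0.14). Among markers of other cell types, the leukocyte marker Lyz2 (0.54, SE 0.16; 1 of 3 tested) and the endothelial marker Cdh5 (-1.07, SE 0.20; 1 of 2 tested) were called, and none of the 4 epithelial, 3 hepatocyte, 2 adipocyte, 2 muscle and 1 neural marker genes tested was. Their part in the result was not tested. Probe sequences were not used here, so reads of one gene by a probe of a close paralogue or pseudogene (Hnrnpa1 and Hnrnpa2b1, Ddx5 and Ddx17) could not be told apart.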

How the data were processed

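The authors deposited log2 ratios of the 2 channels per probe; software, background correction and normalization are not given in the sources used here, and each array's scale constant is unknown. Values above 12 (2807, a ceiling) were dropped, arrays centred on their median, Cy3 arrays multiplied by -1 and probes of a gene averaged. The log2 ratios of untreated replicate 1 exceeded those of replicate 2 by 0.771 at every probe (SD 0.00051 over 19840 values), less than sampling noise, so they were counted as 1 array. At 5 and 7 d values lay 1 to 4 rows off from probe row 6054 on (1 row more throughout on 5d replicate 1), found from the pattern of missing values, and were moved back; 383 rows were left out there, among them 1 of 2 Lsm3 probes. Gene names are those of the platform annotation (14030 probes with 1 gene, 5 with several, 6320 with none).

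limma 3.58.1 in R 4.3.3 fitted all 35 arrays with groups and dye, and at least 3 values per group were required. The script was tested on simulated data. Of its calls there, 1 of 99 was false at 2 h, 16 of 116 at 5 d and 26 of 179 late against early. Members and lists were chosen with earlier results of these data known. Genes named are called members, the 2 highest and 2 lowest moderated t per time, and core members listed by symbol; Hnrnpab, Hnrnpdl, Hnrnpul2, Hnrnpll, Lsm14a, Lsm14b, Sf3b6, Snrpa1, Snrpb2, Srsf4, Srsf11 and 6 of the genes with too few values were added after their values were seen.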

Additional observations from a re-analysis of the deposited data

Results flagged for a closer look

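The 15 members called between late and early arrays differ between parts of the course by the test of that difference itself: Hnrnpa1 (-0.93), Hnrnpa2b1 (-0.66), Hnrnpd (-0.78), Hnrnpf (-0.71), Hnrnpm (-0.35), Hnrnpu (-0.84), Snrpd3 (-0.49), Srsf2 (-1.51), Srsf3 (-0.76), Ddx21 (-0.65), Ddx39a (-0.35) and Ddx3x (-0.43) were lower late, and Srsf5 (0.43), Ddx5 (0.37) and Ddx17 (0.61) higher.

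Single arrays stood apart from the other 3 of their group, by Dixon's test, in 13 of 175 groups of 4 examined (16 members and 6 family medians at 8 times); chance gives about 5%. At 3 d these were Srsf3 on replicate 1 (-0.77, the others 0.14 to 0.29) and Snrpd3 on replicate 4 (0.51, the others -0.27 to -0.15). At 12 h replicate 4 stood apart for Hnrnpa1 (0.72, the others 0.31 to 0.32) and Hnrnpd (-0.18, the others 0.18 to 0.24), and replicate 1 for Ddx17 (-0.30). The remaining ones were Ddx17 at 1 h replicate 4 (-0.37), Hnrnpa2b1 at 24 h replicate 2 (0.75), Srsf5 at 24 h replicate 4 (-0.21), Hnrnpf at 5 d replicate 3 (-0.18), Srsf3 at 7 d replicate 3 (0.14), and the family medians of DEAD-box at 1 h replicate 2 (0.02), SF3 at 1 h replicate 3 (0.15) and SR at 4 h replicate 2 (-0.04).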

How the results depend on the processing

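Counts are of members called by limma, first as reported: 0 at 1 h, 2 at 2 h, 1 at 4 h, 0 at 12 h, 0 at 24 h, 0 at 3 d, 3 at 5 d, 1 at 7 d, 12 at any time and 15 late against early. Values not centred gave 0 at 2 h, 4 h and 7 d (6, 5 and 7 at an unadjusted p under 0.05). The unadjusted shares were 7.89%, 6.58% and 9.46% of members, against 5.71%, 3.05% and 12.8% of all genes. There were 4 at any time (5.88%, all genes 2.4%) and 9 late against early (13%, all genes 3.89%). Not centring moved the median of all genes by -0.12 to -0.24 at the times. Quantile normalization gave 1 at 1 h, 6 at 2 h and 2 at 4 h (all genes 0.989%, 1.89% and 0.889%). Cy3 arrays not multiplied by -1 gave 0 at 2 h, 4 h, 5 d and 7 d (5, 6, 6 and 11 unadjusted). These unadjusted shares of members were 6.58%, 7.89%, 8.11% and 14.9%, below the 11.7%, 12.4%, 15.8% and 18.8% of all genes. At 3 d this setting gave 7 (9.86% of members, below the 12.8% of all genes). It gave 1 at any time (1.47%, all genes 5.14%) and 2 late against early (2.9%, all genes 2.38%). A dye effect for each group gave 7 at 2 h, 3 at 4 h and 1 at 3 d (all genes 1.05%, 0.546% and 1.9%). Array weights gave 5, 12, 6, 4, 6, 1 and 3 at 1 h, 2 h, 4 h, 12 h, 24 h, 3 d and 7 d, or 6.49%, 15.8%, 7.89%, 5.26%, 7.79%, 1.41% and 4.05% of members, against 4.85%, 8.7%, 4.04%, 3.17%, 3.92%, 0.603% and 1.9% of all genes. The contrast with 0 gave 2, 10, 5, 2, 2, 3, 7 and 6 from 1 h to 7 d. Only the arrays of the 2 groups compared gave 0 at 2 h, 4 h, 5 d and 7 d (14, 10, 6 and 4 unadjusted). The unadjusted shares were 18.4%, 13.2%, 8.11% and 5.41% of members, against 8.35%, 5.21%, 6.38% and 5% of all genes. This fit rests on fewer arrays. Untreated replicates 1 and 2 as 2 arrays gave 5 at 2 h and 2 at 3 d (all genes 0.903% and 1.1%). Values at the ceiling kept, and at least 2 values per group, gave 1 each at 3 d (all genes 0.518% and 0.692%). A fit per probe gave 0 at 7 d (12 unadjusted, or 16.2% of members, against 13.9% of all genes). Values of 5 and 7 d not moved gave 0 at 5 d and at 7 d (4 and 5 unadjusted). These unadjusted shares of members were 5.56% and 7.25%, below the 9.22% and 10.1% of all genes. This setting gave 4 at any time (6.35%, all genes 3.39%) and 6 late against early (9.23%, all genes 4.05%). Chosen after seeing the data, late against early gave 9 within Cy5 arrays, 7 within Cy3 arrays, 9 without the 5 d arrays, 9 without the 2 h arrays and 8 without the 4 h arrays. In the same order these were 14.3%, 10.8%, 12.9%, 13% and 11.6% of members. The shares of all genes were 6.69%, 5.97%, 5.58%, 3.75% and 4.33%. Where a cause is not named it was not tested.

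Leaving out 1 array gave 0 to 2 at 1 h, 2 to 3 at 2 h, 0 to 2 at 4 h, 0 to 2 at 12 h, 0 to 3 at 24 h, 0 to 3 at 3 d, 2 to 4 at 5 d, 1 to 3 at 7 d, 9 to 14 at any time and 12 to 16 late against early; the highest counts against the untreated arrays came without untreated replicate 1, and at 3 d and 5 d without 3d replicate 2 and 5d replicate 4 as well. Signs turned in 12 cases. With Cy3 arrays not multiplied Srsf5 read -0.51 at 2 h, -0.54 at 5 d and -0.44 at 7 d, Srsf3 -0.05 at 2 h and -0.14 at 4 h, Hnrnpa1 0.12 and Srsf2 2.00 at 5 d, and late minus early was 0.01 for Ddx3x, 0.22 for Hnrnpa2b1, 0.26 for Hnrnpu and 0.69 for Srsf2. With values not moved Srsf2 read 0.03 at 5 d.

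Same replicate numbers did not pair the arrays: the mean correlation of their deviations was -0.038 over 136 pairs, against -0.039 for other numbers of the same dye. The replicate block gave 2 at 2 h, 1 at 4 h, 2 at 5 d, 1 at 7 d, 12 at any time and 14 late against early. The shares of all genes were 0.516%, 0.236%, 1.41%, 1%, 4.45% and 6.38%, in the same order. The number of arrays limits the precision.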
